A study of Rattus norvegicus with 18 samples.

Results

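Metallothioneins are small, cysteine-rich proteins that bind zinc and copper, and 7 genes of metallothionein and zinc handling were followed in the lungs of F344 rats given multi-walled carbon nanotubes (MWCNT). The 7 genes were taken by name from the 22081 genes of the deposited tables: the metallothioneins *Mt3*, *Mt1*, and *Mt2A*, the zinc sensor *Mtf1*, the zinc exporter *Slc30a1*, and the zinc importers *Slc39a8* and *Slc39a14*. All 7 were present and passed the filter on low counts at each time point, *Mt3* only through the MWCNT-treated rats. They had been chosen with their difference between MWCNT-treated and control rats already known, *Mt3* as a gene with a very large rise, so that difference is described here without a test. Tests are given for changes with time and for genes outside the 7. Earlier results that showed larger *Mt3* differences at later years were also known when the genes were chosen, so the time tests of *Mt3* are not independent evidence.

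The samples were lungs of 18 male F344/DuCrlCrlj rats, 3 MWCNT-treated and 3 control rats at each of Years 0.5, 1, and 2. From 9 weeks of age and every 4 weeks, the treated rats received 0.5 mg/kg of the nanotube MWNT-7 by instillation into the trachea, and the control rats received the vehicle, saline with Tween 80, by the same route and schedule. Each time point used different rats. Treated rats of later years were older and had received more doses, and within that group age and number of doses cannot be told apart. RNA came from a piece of the accessory lobe without a tumor on gross examination, and microscopy of the rest of that lobe found none. The authors state that the frozen pieces may have held focal lesions, among them hyperplasias and early adenomatous lesions. The values thus describe whole tissue of 1 lobe, 1 dose, 1 sex, and 1 strain. In such tissue, fewer cells of a type and less RNA per cell cannot be told apart. Total counts per rat ranged from 13297643 to 17868851 in control rats and from 14661589 to 21130757 in MWCNT-treated rats. The tissue held lung markers at high levels, with a summed TPM (a level scaled for gene length and library size) of the 6 alveolar type 2 cell markers between 27133 and 35823 in control rats and between 50697 and 60277 in MWCNT-treated rats.

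In most cells, free zinc activates *Mtf1*, whose product binds metal response elements before the metallothionein genes and *Slc30a1*. *Mt1* and *Mt2A* are made in nearly every tissue and are also raised by glucocorticoids and inflammatory cytokines. *Mt3* is best known from neurons and astrocytes of the brain. Slc30 proteins move zinc out of the cytoplasm, and Slc39 proteins move it in. *Slc39a8* and *Slc39a14* are plasma membrane importers that also carry manganese and iron, and *Slc39a8* is known to be raised by inflammatory signals in macrophages and lung epithelium.

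The bases just before the start of these genes were read from the RefSeq promoter table, which held 6 of the 7 genes. *Slc39a14* had no entry. The core of the metal response element was searched as TGCACNC or TGCGCNC on both strands of the 250 bases before the start, and no match overlapped another. The sequences of the 3 metallothioneins and of *Slc30a1* are shown because their number of cores differs. They are written 5′ to 3′ on the strand of the gene in build GRCr8, with the cores in capitals.
Mt3, chr19:10856081-10856330, minus strand: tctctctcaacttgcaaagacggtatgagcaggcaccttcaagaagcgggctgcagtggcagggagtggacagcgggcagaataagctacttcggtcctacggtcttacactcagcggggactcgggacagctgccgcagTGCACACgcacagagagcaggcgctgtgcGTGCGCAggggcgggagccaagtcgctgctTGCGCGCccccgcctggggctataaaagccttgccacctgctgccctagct
Mt1, chr19:10832976-10833225, minus strand: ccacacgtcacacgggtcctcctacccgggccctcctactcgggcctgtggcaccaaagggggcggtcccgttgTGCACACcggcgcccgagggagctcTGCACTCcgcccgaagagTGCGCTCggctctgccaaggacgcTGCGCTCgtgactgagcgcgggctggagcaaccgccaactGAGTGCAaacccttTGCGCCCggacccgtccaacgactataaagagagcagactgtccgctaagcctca
Mt2A, chr19:10838709-10838958, minus strand: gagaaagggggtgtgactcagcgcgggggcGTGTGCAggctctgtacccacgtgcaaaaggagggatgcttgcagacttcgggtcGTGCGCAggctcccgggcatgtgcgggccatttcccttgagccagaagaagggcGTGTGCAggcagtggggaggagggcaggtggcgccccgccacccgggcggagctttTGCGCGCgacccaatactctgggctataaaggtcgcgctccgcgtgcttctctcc
Slc30a1, chr13:106021769-106022018, plus strand: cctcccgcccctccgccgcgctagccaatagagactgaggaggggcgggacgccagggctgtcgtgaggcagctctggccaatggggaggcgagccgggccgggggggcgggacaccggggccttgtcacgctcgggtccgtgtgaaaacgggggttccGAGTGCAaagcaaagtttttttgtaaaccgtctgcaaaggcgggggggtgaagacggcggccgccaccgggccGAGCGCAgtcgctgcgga
*Mt1* held 6 cores, *Mt2A* 4, *Mt3* 3, and *Slc30a1* and *Mtf1* 2 each, while *Slc39a8* held none. Of the 33469 promoters in the table, 20.6% held at least 1 core, 4.90% at least 2, 1.17% at least 3, 0.266% at least 4, and 0.0269% at least 6. *Mt4*, a metallothionein of stratified epithelium, held 1 core. A match to these letters is a description of the sequence and does not show that a factor was bound in these lungs.

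**Figure D1:**
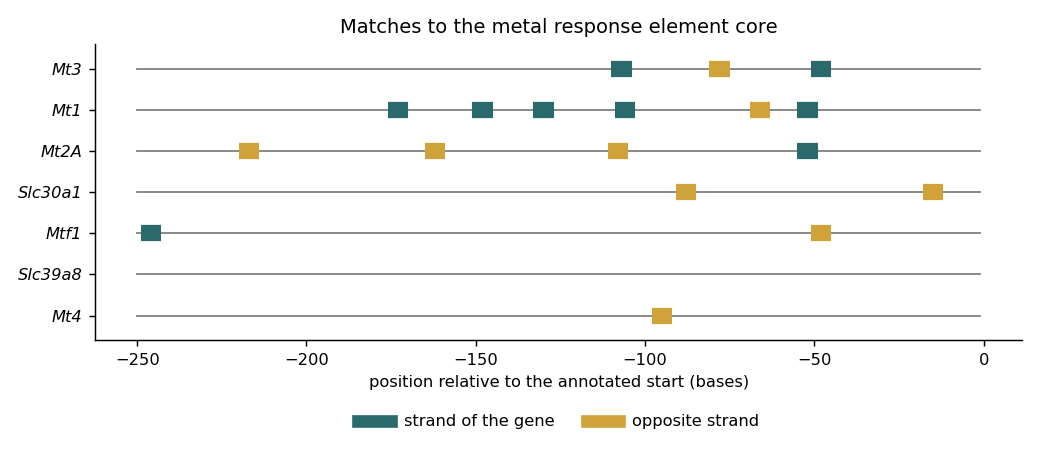
Positions of the matches to the metal response element core in the 250 bases before the annotated start of each gene (x axis, bases from the start), with 1 row per gene and colour for the strand of the match. *Mt1* has the most matches, 6, and *Slc39a8* has none.

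*Mt3* was almost absent from control lungs. The 3 control rats had 2, 2, and 1 reads at Year 0.5, 0, 0, and 1 at Year 1, and 0, 1, and 2 at Year 2. MWCNT-treated rats had 122, 219, and 57 reads at Year 0.5, 152, 320, and 153 at Year 1, and 456, 681, and 294 at Year 2. Thus no control rat had more than 2 reads, no MWCNT-treated rat had fewer than 57, and the groups did not overlap at any time point. In TPM, the MWCNT-treated rats had 37.0, 48.3, and 17.0 at Year 0.5, 44.6, 81.0, and 44.7 at Year 1, and 139.6, 183, and 85.4 at Year 2, and no control rat exceeded 0.709.

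Because the control reads were so few, the size of the difference was known only roughly. The pooled reads, scaled for the TMM library size, were 73.7-fold higher in MWCNT-treated rats at Year 0.5, with a 95% exact interval of 31.3 to 228. They were 658-fold higher at Year 1, with an interval of 118 to 26014, and 476-fold higher at Year 2, with an interval of 163 to 2311. These intervals cover counting error only and overlap between the time points, so they give no order of the ratios. The fitted log2 fold changes were 6.05 ± 0.58 (SE), 8.88 ± 0.62, and 8.72 ± 0.52. Over 14 alternative fits, they lay between 4.40 and 6.39 at Year 0.5, between 5.68 and 10.67 at Year 1, and between 6.64 and 9.59 at Year 2. The lowest value of each time point came on the log2(TPM + 1) scale, and the highest came without MWCNT-treated rat 3 at Year 0.5 and without control rat 3 at Years 1 and 2.

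*Mt3* rose with time in the MWCNT-treated lungs. Its mean TPM was 34.1 ± 15.8 (SD, n = 3) at Year 0.5, 56.8 ± 21.0 at Year 1, and 136 ± 48.9 at Year 2. The 3 rats of Year 2 all lay above the 6 rats of the earlier years, and the rats of Years 0.5 and 1 overlapped. From Year 0.5 to Year 2, the log2 change was 2.06 ± 0.35 (adjusted p = 0.000855, edgeR's quasi-likelihood test over all 18 rats), a 3.99-fold ratio of mean TPM. Of all genes tested, 2.34% were called in that comparison, and *Mt3* was called in each of 11 alternative fits, with log2 changes between 1.73 and 2.43. From Year 1 to Year 2, the log2 change was 1.26 ± 0.33 (adjusted p = 0.0342), where 0.903% of all genes were called. That call did not hold in a fit of only the 6 rats compared (adjusted p = 0.0784), nor without MWCNT-treated rat 1 or 3 of Year 1 (adjusted p = 0.136 and 0.138) or rat 1 or 2 of Year 2 (0.0971 and 0.162). From Year 0.5 to Year 1, the change of 0.80 ± 0.35 was not called (adjusted p = 0.498). These time tests describe *Mt3* and are not independent evidence, since larger differences at later years were known when it was chosen.

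Whether the difference between MWCNT-treated and control rats itself grew could not be settled for *Mt3*. The interaction of treatment and time, which compares the treatment difference at Year 2 with that at Year 0.5, was 2.67 ± 1.64 on the log2 scale (adjusted p = 0.501), and the control rats behind it had 0 to 2 reads.

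**Figure D2:**
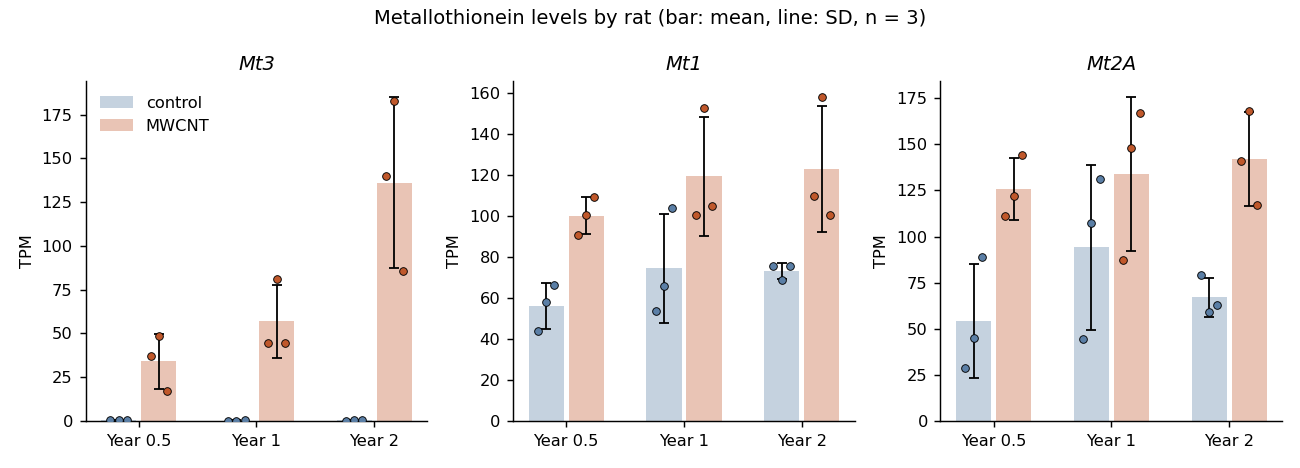
TPM (y axis) of *Mt3*, *Mt1*, and *Mt2A* in control and MWCNT-treated rats at Years 0.5, 1, and 2, with points for rats, bars for the mean, and lines for the SD of 3 rats. *Mt3* lies below 1 TPM in every control rat and reaches 183 TPM at Year 2, whereas *Mt1* and *Mt2A* are already present in control lungs.

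Several sums of cell type markers also differed between MWCNT-treated and control rats. The summed TPM of 7 macrophage markers was between 163 and 243 in control rats and between 834 and 1593 in MWCNT-treated rats, and 7, 6, and 7 of the 7 were called higher at Years 0.5, 1, and 2, against 6.07%, 6.13%, and 8.17% of all genes tested. With treatment, the median of that sum was 893 at Year 0.5, 967 at Year 1, and 1519 at Year 2. Among the 7 markers, *Fabp4*, a fatty acid-binding protein of alveolar macrophages, alone was called higher at Year 2 than at Year 0.5 in MWCNT-treated lungs, by 1.37 ± 0.16 on the log2 scale (adjusted p = 5.59e-05). The summed TPM of 4 neutrophil markers was between 206 and 365 in control rats. It had medians of 362, 958, and 931 in MWCNT-treated rats at Years 0.5, 1, and 2. In MWCNT-treated lungs, 2 of the 4 were called higher at Year 2 than at Year 0.5, against 2.34% of all genes tested. The sum came mostly from *S100a8* and *S100a9*, whose mean TPM at Year 2 was 305 and 560 with treatment and 125 and 141 in control rats. For *Csf3r* and *Cxcr2*, the TPM of the groups overlapped at each time point. Their means at Year 2 were 16.2 and 11.3 TPM with treatment and 21.2 and 10.1 TPM in control rats. Sums that were lower in MWCNT-treated rats were those of alveolar type 1 cells, 2495 to 3901 TPM against 5258 to 6195, and club cells, 10492 to 15539.6 against 18171 to 32942. Endothelial cells were also lower, 575 to 1305 against 1771 to 2335. The alveolar type 2 sum was higher, 50697 to 60277 against 27133 to 35823. The fibroblast sum overlapped, 704 to 1176 against 599 to 1341. The sum of 6 heart muscle markers ranged widely, 15.6 to 202 TPM against 72.9 to 670, and overlapped. All 6 were called lower at Year 0.5, and 1 at each of Years 1 and 2. Of all genes, 9.1%, 10.2%, and 16.4% were called in either direction. The part of these cells in the *Mt3* values was not tested. The 6 neuron and astrocyte markers summed to between 32.1 and 54.1 TPM in control rats and to between 23.1 and 39.5 TPM in MWCNT-treated rats. Most of that sum came from *Aqp4* and *Syt1*, which were lower by the FDR in MWCNT-treated rats at Year 2, while *Gfap*, *Snap25*, and *Slc1a2* were called higher at Year 2 with at most 35 reads in any rat.

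The genes whose pattern was most like *Mt3* over the 18 rats were *RGD1304694*, *Ctsb*, *Ifi30*, *Fam3c*, and *Steap3*, with Pearson's r of log2 CPM between 0.991 and 0.992. *Ctsb* encodes the lysosomal protease cathepsin B, *Ifi30* a lysosomal thiol reductase, and *Steap3* an iron reductase of endosomes. These values are a description, since the rats form separate clusters by treatment and the r spans the gap between the clusters.

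*Mt1* was present in every lung and higher in MWCNT-treated rats. Control rats had 43.9, 57.8, and 66.4 TPM at Year 0.5, 53.4, 65.5, and 103.9 at Year 1, and 75.4, 68.7, and 75.3 at Year 2. MWCNT-treated rats had 90.8, 100.1, and 109 TPM at Year 0.5, 100.4, 152, and 105 at Year 1, and 109.6, 158, and 100.5 at Year 2. In TPM, all MWCNT-treated rats lay above all control rats at Years 0.5 and 2, and at Year 1 control rat 3 lay above MWCNT-treated rat 1. In log2 CPM with TMM factors, the groups did not overlap at Year 1, with 4.42 in the lowest MWCNT-treated rat and 4.27 in the highest control rat. The log2 fold changes were close at the 3 time points, 0.98 ± 0.15, 0.92 ± 0.26, and 0.96 ± 0.17, just under the limit of 1 used for a DEG (differentially expressed gene).

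The identity of the *Mt1* entry is uncertain. The deposited tables, in build Rnor_6.0, place it on chromosome 17 from 78793336 to 78793724, a span of 389 bases inside *Dclre1c* on the opposite strand. The RefSeq annotation of build GRCr8 has *Mt1* on chromosome 19 beside *Mt2A*, and the entry inside *Dclre1c* with a length of 389 bases is there a pseudogene, Mt1-ps3. The deposited entry beside *Mt2A*, AC128848.1 (chromosome 19, 11302125 to 11302938), had 0 reads in all 18 rats, as had *Mt1m* and *Mt4*. Which copy the reads of the *Mt1* entry came from cannot be told from the tables, and the sources used here do not give how the counting treated reads that fit several places or the strand. *Dclre1c* itself had 8.67 to 18.3 TPM, far below the *Mt1* entry. The *Mt1* promoter shown above belongs to the gene on chromosome 19.

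*Mt2A*, on chromosome 19 from 11307967 to 11308740, was also higher in MWCNT-treated rats but varied more among control rats. Control rats had 28.9, 44.9, and 88.8 TPM at Year 0.5, 44.2, 107, and 131 at Year 1, and 78.9, 59.1, and 62.8 at Year 2. MWCNT-treated rats had 111, 122, and 144 TPM at Year 0.5, 87.3, 148, and 167 at Year 1, and 141, 168, and 117 at Year 2. The groups did not overlap at Years 0.5 and 2, and at Year 1 MWCNT-treated rat 1 lay below control rats 2 and 3. The log2 fold changes were 1.36 ± 0.32, 0.75 ± 0.35, and 1.30 ± 0.17.

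No change of *Mt1* or *Mt2A* with time passed the test. In MWCNT-treated lungs, the log2 change from Year 0.5 to Year 2 was 0.38 ± 0.23 for *Mt1* (adjusted p = 0.295) and 0.26 ± 0.34 for *Mt2A* (adjusted p = 0.674), against 2.06 for *Mt3*. In control lungs, it was 0.40 ± 0.24 for *Mt1* (adjusted p = 0.338) and 0.32 ± 0.38 for *Mt2A* (adjusted p = 0.65). The interactions of treatment and time were also not called, with -0.02 ± 0.33 for *Mt1* and -0.06 ± 0.51 for *Mt2A* between Years 0.5 and 2 (adjusted p = 0.991 and 0.976).

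The makeup of the metallothionein pool differed between rats. The summed TPM of the 3 genes averaged 111, 168, and 140.4 in control rats at Years 0.5, 1, and 2, and 259.8, 309.9, and 401 in MWCNT-treated rats. *Mt3* made up at most 0.793% of that sum in any control rat. In MWCNT-treated rats, its share was 13.2% ± 6.1 (SD, n = 3) at Year 0.5, 18.2% ± 3.7 at Year 1, and 33.3% ± 4.4 at Year 2. The lowest share at Year 2, 28.2%, lay above the highest at Years 0.5 and 1, 17.8% and 21.3%. These shares include the *Mt1* entry as deposited.

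**Figure D3:**
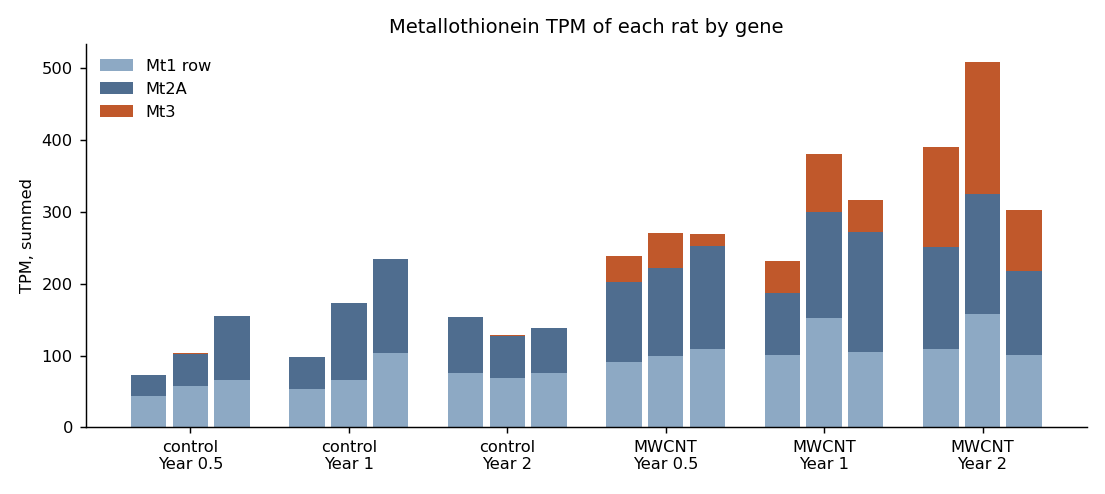
Summed TPM (y axis) of the *Mt1* entry, *Mt2A*, and *Mt3*, with 1 stacked bar per rat, grouped by treatment and year (x axis). The *Mt3* part is not visible in control rats and takes 28.2% to 36.0% of the bar in MWCNT-treated rats of Year 2.

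*Mt1* and *Mt2A* varied together among control rats by Pearson's r. The 4 relations below were chosen after the data were seen, and the permutations moved rats across years, so their p-values are descriptions. Across the 9 control rats, Pearson's r of log2 CPM was 0.85 (exact permutation p = 0.00423, adjusted p = 0.0169 over 4 relations) and Spearman's rho was 0.73 (exact permutation p = 0.0311, adjusted p = 0.0622). It was 0.85 after the means of the years were removed, and 0.53 once the 2 rats with the most extreme *Mt1* were left out, so it rested in part on them. Across the 9 MWCNT-treated rats, neither measure passed the adjusted threshold, with an r of 0.67 (exact permutation p = 0.048, adjusted p = 0.087) and a rho of 0.78 (exact permutation p = 0.0172, adjusted p = 0.0622). Nor did *Mt3* pass with either gene: r was 0.65 with *Mt1* (exact permutation p = 0.0652, adjusted p = 0.087; rho 0.53, p = 0.148) and 0.41 with *Mt2A* (exact permutation p = 0.272, adjusted p = 0.272; rho 0.52, p = 0.162). How reads shared by metallothionein copies were counted is not given in the sources used here, and its part in the relation of *Mt1* and *Mt2A* was not tested.

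The spread of *Mt2A* within groups followed that of glucocorticoid-responsive genes. For each rat, the deviation of log2 CPM from its group mean was taken, and all 10 genes of a glucocorticoid-responsive list correlated positively with *Mt2A* over the 18 rats, with r from 0.24 for *Dusp1*, a phosphatase of MAP kinases, to 0.82 for *Ddit4*, an inhibitor of mTOR, and a median of 0.71. Of all 14842 other genes tested, 49.1% correlated positively, with a median of -0.01. For *Mt1*, 9 of the 10 did, with a median of 0.31. As an example, *Fkbp5*, a glucocorticoid-induced chaperone, had 25.3, 140.1, and 129 TPM in the control rats of Year 1, where *Mt2A* had 44.2, 107, and 131. Control rat 1 was thus the low rat for both genes. *Fkbp5* in the control rats of Year 0.5 was 19.8, 18.7, and 39.4 TPM, and *Mt2A* was likewise highest in rat 3. Other groups did not match: in MWCNT-treated rats of Year 2, *Fkbp5* was 55.0, 31.4, and 51.6 TPM, lowest in rat 2, where *Mt2A* was highest, and in control rats of Year 2 it was 25.8, 27.6, and 25.9 TPM, highest in rat 2, where *Mt2A* was lowest. Of the 5 genes of IL-6 signalling, 4 correlated positively with *Mt2A*, from -0.63 for *Socs3*, a feedback inhibitor, to 0.68 for *Il6r*, the receptor, with a median of 0.07. These correlations are descriptions over rats that share groups, with no test. All 10 glucocorticoid-responsive genes were higher in control rats 2 and 3 of Year 1 than in rat 1, so they are not 10 separate observations.

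Over single genes, the deviations most like those of *Mt2A* were those of *Sec14l2*, *Irx1*, *Eva1c*, *Pla2g5*, and *Gadd45g*, with r between 0.87 and 0.92, and those most like *Mt1* were *Tma16*, *Pla2g5*, *Gpt2*, *P2rx3*, and *Rgn*, with r between 0.79 and 0.90. *Pla2g5*, a secreted phospholipase A2, was in both lists. When the differences between groups were kept, the genes most like *Mt2A* were *Cdkn1a*, *Ppp4r1*, *Ms4a4a*, *Cars*, and *Slc7a6*, with r between 0.92 and 0.93, and those most like *Mt1* were *Tfec*, *Clec10a*, *Ninj1*, *Cars*, and *Il10rb*, with r between 0.93 and 0.94. *Cdkn1a* encodes the cell cycle inhibitor p21, and *Tfec* and *Clec10a* are known from macrophages.

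*Slc39a8* was higher in MWCNT-treated rats at each time point. Control rats had 34.4, 35.1, and 38.7 TPM at Year 0.5, 36.9, 42.9, and 40.6 at Year 1, and 39.7, 37.2, and 42.8 at Year 2. MWCNT-treated rats had 63.4, 69.7, and 59.1 TPM at Year 0.5, 64.3, 52.2, and 64.2 at Year 1, and 60.8, 60.7, and 72.0 at Year 2. Every MWCNT-treated rat lay above every control rat, across all time points, as was also so for the importers *Slc39a6*, *Slc39a1*, and *Slc39a13*. The log2 fold changes were 0.98 ± 0.09, 0.82 ± 0.08, and 0.91 ± 0.09, and the interaction between Years 0.5 and 2 was -0.06 ± 0.12 (adjusted p = 0.88).

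*Slc39a14* differed little. Its TPM was 8.09, 8.75, and 9.30 in control rats and 10.2, 11, and 12.1 in MWCNT-treated rats at Year 0.5, where the groups did not overlap. At Year 1, it was 6.91, 10.6, and 10.2 in control rats and 9.65, 8.59, and 9.64 in MWCNT-treated rats, and at Year 2, it was 7.16, 9.12, and 10.6 against 11, 10.2, and 9.57. In TPM, the groups overlapped at both of these time points. In log2 CPM with TMM factors, they did not. There the lowest MWCNT-treated rat had 4.59 against 4.57 in the highest control rat at Year 1, and 4.67 against 4.59 at Year 2. The log2 fold changes were 0.50 ± 0.09, 0.24 ± 0.14, and 0.42 ± 0.13.

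*Slc30a1*, the exporter at the cell surface, separated the groups only at Year 2. At Year 0.5, its TPM was 36.6, 37.3, and 34.8 in control rats and 37.0, 32.9, and 26.1 in MWCNT-treated rats. At Year 1, it was 35.2, 35.0, and 34.1 in control rats and 34.7, 28.4, and 35.7 in MWCNT-treated rats. At Year 2, it was 24.4, 28.6, and 31.9 in control rats and 35.4, 43.5, and 33.8 in MWCNT-treated rats. The groups overlapped at Years 0.5 and 1, and all control rats of Year 2 lay below all earlier control rats. The log2 fold changes were -0.03 ± 0.12, 0.15 ± 0.08, and 0.63 ± 0.11, and the sign at Year 1 turned to -0.08 on the log2(TPM + 1) scale.

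The change of the *Slc30a1* difference with time was near the threshold. The interaction between Years 0.5 and 2 was 0.67 ± 0.17 on the log2 scale (adjusted p = 0.0579, edgeR's quasi-likelihood test), so it was not called. DESeq2 gave an adjusted p of 0.0126, and the 16 alternative fits gave 0.0126 to 0.167. It was called without control rat 3 of Year 2, MWCNT-treated rat 1 of Year 0.5, or MWCNT-treated rat 3 of Year 2 (adjusted p = 0.0412, 0.0476, and 0.0472). From Year 0.5 to Year 2, *Slc30a1* moved by -0.35 ± 0.12 in control lungs (adjusted p = 0.0809) and by 0.32 ± 0.12 in MWCNT-treated lungs (adjusted p = 0.0855), and neither was called. Between Years 1 and 2, the interaction was 0.49 ± 0.17 (adjusted p = 0.158).

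*Mtf1*, on chromosome 5, had few and erratic reads. Control rats had 85, 34, and 60 reads at Year 0.5, 61, 10, and 56 at Year 1, and 21, 101, and 0 at Year 2, and MWCNT-treated rats had 136, 93, and 136, then 55, 120, and 134, and then 1, 130, and 106. Groups overlapped at every time point, and rats of the same group at Year 2 ranged from 0 or 1 to over 100 reads. The log2 fold changes were 0.98 ± 0.33, 1.34 ± 0.53, and 0.95 ± 1.17. The neighbouring entry LOC103689941 had 0 to 22 reads. No direction is drawn for *Mtf1*.

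**Figure D4:**
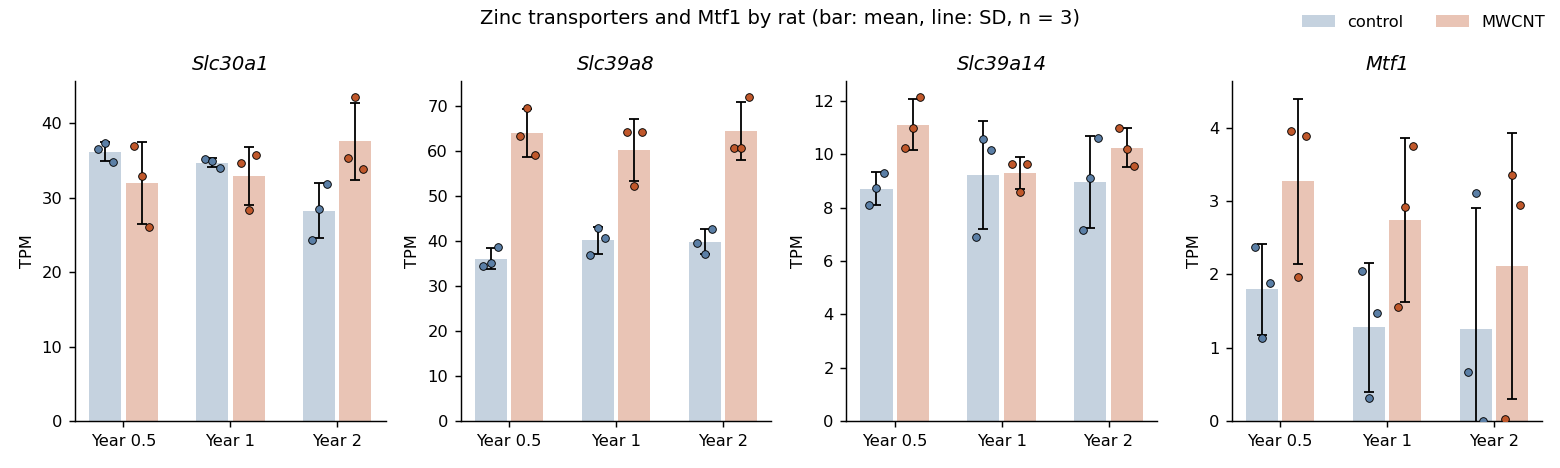
TPM (y axis) of *Slc30a1*, *Slc39a8*, *Slc39a14*, and *Mtf1* in control and MWCNT-treated rats at Years 0.5, 1, and 2, with points for rats, bars for the mean, and lines for the SD of 3 rats. *Slc39a8* separates the groups at every time point, *Slc30a1* only at Year 2, and *Mtf1* at none.

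Counted over the 7 genes, the DEG criterion (FDR under 0.05 with a change of more than 1 on the log2 scale in either direction) was met by 2 at Year 0.5, *Mt3* and *Mt2A*, by 1 at Year 1, *Mt3*, and by the same 2 genes as at Year 0.5 at Year 2, each higher in MWCNT-treated rats. Of all genes tested, 9.1%, 10.2%, and 16.4% met it, and 6.07%, 6.13%, and 8.17% did so with a higher value in MWCNT-treated rats. By the FDR alone, 6, 3, and 6 of the 7 passed, against 38.8%, 41.2%, and 49.2% of all genes. In TPM, 5, 2, and 5 of the 7 had all MWCNT-treated rats above all control rats, against 17%, 15%, and 18.1% of all genes. Since the genes were chosen with this difference known, nothing is read from these counts. The median log2 fold change of the 7 was 0.98, 0.82, and 0.95, against -0.02, 0.00, and -0.01 over all genes tested. No interaction of treatment and time was called for any of the 7 by edgeR between any years, where 1.31% of all genes were called between Years 0.5 and 2, 0.478% between Years 1 and 2, and 0% between Years 0.5 and 1. At an unadjusted p below 0.05, *Slc30a1* alone passed for Year 2 against Year 0.5 and Year 2 against Year 1. In MWCNT-treated lungs, 0 of the 7 were called for Year 1 against Year 0.5 (0.0472% of all genes), where *Mt3* passed unadjusted. In control lungs, no time effect of the 7 was called, where 0.633%, 0.499%, and 0% of all genes were called for Year 2 against Year 0.5, Year 2 against Year 1, and Year 1 against Year 0.5. Unadjusted, *Slc30a1* passed in the first and second of these comparisons and *Mt2A* in the last.

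The remaining zinc transporters gave a setting for these values. Of the 12 other SLC39 importers, 11 could be tested, and 6, 5, and 6 were higher by the FDR alone at Years 0.5, 1, and 2, with none lower, beside the 38.8%, 41.2%, and 49.2% of all genes that passed the FDR in either direction. By the DEG criterion, only *Slc39a6*, a plasma membrane importer, was called, at Year 2, with 13.5, 13.8, and 14.5 TPM in control rats and 26.6 TPM in each MWCNT-treated rat, and a log2 fold change of 1.15 ± 0.07 (adjusted p = 3.8e-06). That change was below 1 under library size scaling, 0.98, and on the TPM scales, 0.89 and 0.93. The importers with the highest levels were *Slc39a4*, which was not called (log2 fold change 0.05 to 0.20), and *Slc39a1*, which was higher by 0.47 ± 0.07, 0.58 ± 0.09, and 0.68 ± 0.07 (adjusted p = 0.00126, 0.00099, and 5.8e-05). The median over the 11 was 0.34, 0.22, and 0.22.

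Of the 9 other SLC30 exporters, 6 could be tested, and none met the DEG criterion. By the FDR alone, 2, 1, and 3 of the 6 were higher, and 1 was lower at Year 2, to be read beside the same shares of all genes. The largest change among the 6 was that of *Slc30a3* at Year 2, 0.98 ± 0.20 (adjusted p = 0.00365, edgeR's quasi-likelihood test). Its changes of 0.44 and 0.21 at Years 0.5 and 1 did not pass the FDR. *Slc30a7*, which loads zinc into the secretory pathway, was higher by 0.42 ± 0.09, 0.30 ± 0.10, and 0.70 ± 0.11 (adjusted p = 0.00748, 0.041, and 0.000807). The exporters with the highest levels, *Slc30a9* and *Slc30a5*, had log2 fold changes between -0.21 and -0.04, and of these only *Slc30a9* at Year 2 passed the FDR (-0.21 ± 0.06, adjusted p = 0.021).

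**Figure D5:**
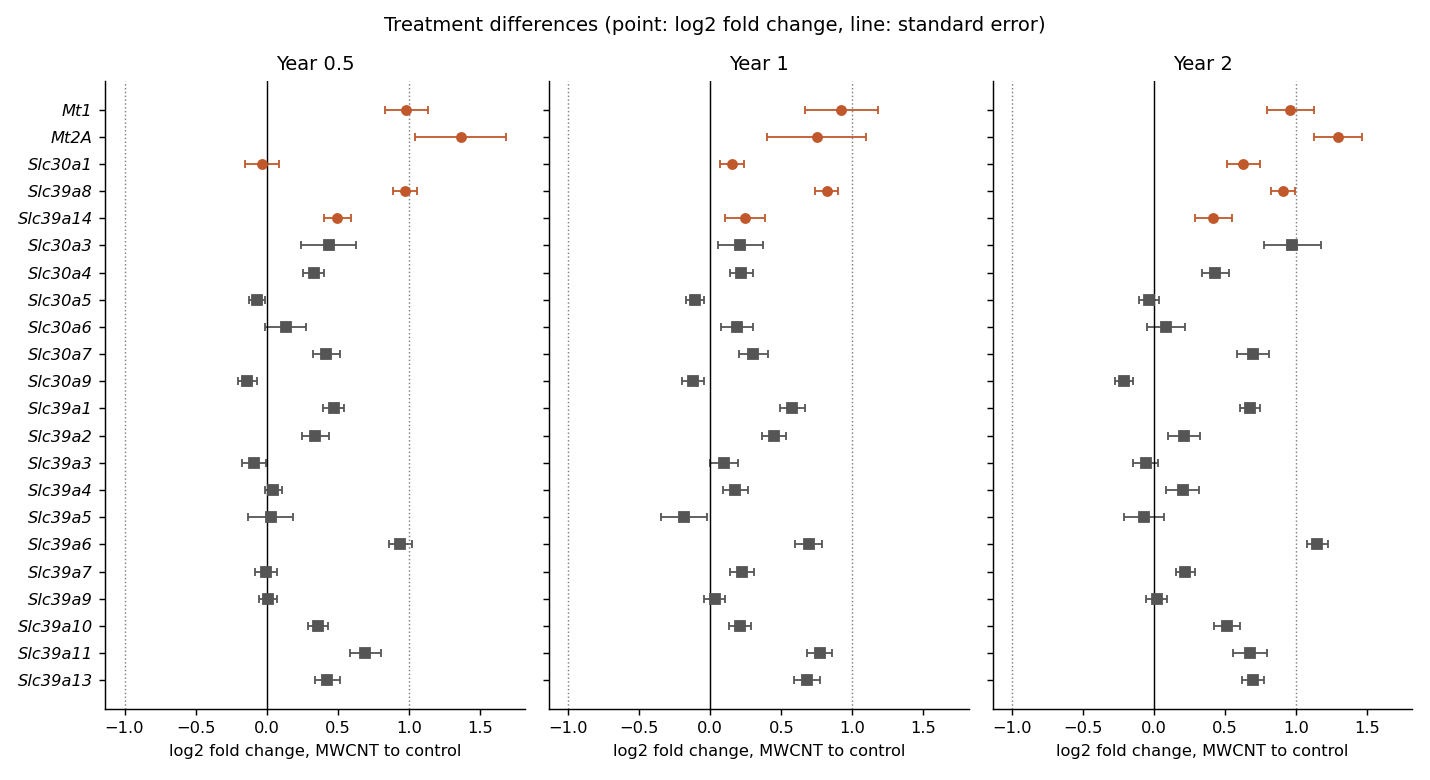
Log2 fold change of MWCNT-treated to control rats (x axis) with its standard error for *Mt1*, *Mt2A*, the 3 zinc transporters of the 7 genes (circles), and the other SLC30 and SLC39 transporters (squares) at Years 0.5, 1, and 2. Dotted lines mark -1 and 1, and *Mt3* and *Mtf1* are left out because of their scale and error. Only *Mt2A*, at Years 0.5 and 2, and *Slc39a6*, at Year 2, lie beyond 1.

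Copper handling, in which metallothioneins also take part, was examined with a list of 12 genes, of which 11 were tested. *Slc31a1*, the high-affinity copper importer, rose at Year 2 by 1.34 ± 0.12 (adjusted p = 2.25e-05), with 14.6, 18.3, and 18.1 TPM in control rats and 40.2, 34.3, and 36.2 TPM in MWCNT-treated rats. *Atp7b*, a copper exporter, was lower at Year 1 by -1.18 ± 0.37 (adjusted p = 0.0298), a call that was lost without control rat 2 or 3 or MWCNT-treated rat 1 or 2 (adjusted p = 0.0832 to 0.109), and its change was -0.73 on the log2(TPM + 1) scale. The genes with the highest levels were *Sod1*, the copper-zinc superoxide dismutase, which was not called (-0.15 to 0.17), and the copper chaperone *Atox1*, which was higher by 0.36 ± 0.08, 0.70 ± 0.14, and 0.73 ± 0.12 (adjusted p = 0.00535, 0.00408, and 0.000973).

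In the glucocorticoid-responsive list, the treatment difference went in either direction. *Sgk1*, a kinase that regulates ion channels, was called higher at Year 2 by 1.32 ± 0.09 (adjusted p = 5.37e-06). *Fkbp5* was higher there by 1.02 ± 0.19 (adjusted p = 0.00183), but the call was lost in 8 of 15 alternative fits. *Dusp1*, which had the highest level, was lower by -0.62 ± 0.11, -0.88 ± 0.17, and -0.73 ± 0.11 (adjusted p = 0.00276, 0.00331, and 0.000484). *Tsc22d3*, the glucocorticoid-induced leucine zipper, had log2 fold changes of 0.22, -0.57, and 0.34, of which that at Year 2 passed the FDR (adjusted p = 0.0142). In the IL-6 list, 4 of the 5 genes could be tested, and none of these met the DEG criterion. *Il6*, the cytokine itself, had too few reads for the filter and was not tested. Its 3 control rats had 5, 8, and 12 reads in all at Years 0.5, 1, and 2, and its 3 MWCNT-treated rats had 46, 29, and 42. *Stat3*, the transcription factor of the pathway, was higher by 0.37 ± 0.06, 0.28 ± 0.07, and 0.35 ± 0.07 (adjusted p = 0.0017, 0.0108, and 0.00284), and *Il6st*, the signal-transducing receptor, had -0.18, -0.29, and -0.26, with only Year 0.5 passing (adjusted p = 0.0296).

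*Mt3* lies on chromosome 19 from 11324698 to 11326139, and 15 deposited entries, *Mt3* included, start within 500000 bases of its start. Of the 12 tested, the only one other than *Mt3* and *Mt2A* that met the DEG criterion was *Gnao1*, which encodes a G protein subunit and was lower, by -1.22 at Year 0.5 and -1.06 at Year 1 (adjusted p = 0.000791 and 0.00268). At Year 1, its call was lost without control rat 2 or MWCNT-treated rat 2 (-0.97 and -0.94). A rise of the size seen for *Mt3* was not shared by the other tested entries, whose log2 fold changes outside the metallothioneins lay between -1.22 and 0.62.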

How the data were processed

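Lungs of 18 rats were sequenced, 3 control and 3 MWCNT-treated rats at each of Years 0.5, 1, and 2, with groups taken from the sample labels. The authors made libraries with NEBNext Ultra II, mapped and counted reads with CLC Genomics Workbench 22.0.2, and deposited a read count per gene, without normalization, and TPM values; the submitters' notes name the builds Rnor_6.0 and rn6. The deposited RPKM and CPM values and the authors' comparison columns, which hold fold changes and p-values, were not used. Total counts of 13297643 to 21130757 per rat and 3 rats per group set the precision, and intervals cover counting error only.

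Counts were tested with edgeR 4.0.16 in R 4.3.3 (TMM factors, quasi-likelihood test, Benjamini-Hochberg adjustment). The filter, filterByExpr at its defaults, asked for about 10 counts in at least as many rats as 1 group holds, and 15 in all. Treatment was tested within the 6 rats of each time point, 14315 to 14361 genes. Time and interaction were tested in 1 model of 18 rats, 14843 genes. SE was derived from the log2 fold change and F. The threshold was an FDR of 0.05, and for DEGs also a log2 change of 1 in either direction. The fits were tested on simulated counts. By an FDR of 0.05 alone, log2 changes of 1 were recovered for 72.6% of changed genes for treatment at Year 2. The recovery was 63% for the interaction of Year 2 against Year 0.5 and 72% for that time effect in MWCNT-treated lungs. A change of that size could thus go uncalled. Treatment and time calls also asked for a log2 change of more than 1 in either direction, and the recovery under that limit was not tested. Correlations used log2 CPM with a prior count of 2, and exact permutation tests, two-sided, in Python 3.11.15 with scipy 1.17.1. The relations among metallothioneins and the entries AC128848.1, Mt1m, LOC103689941, and *Dclre1c* were chosen after the data were seen, as were the single genes described inside the marker lists.

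The 7 genes, the gene lists, and the alternatives were chosen with earlier results of these data known. Named from each list were the genes called at any time point and the 2 with the highest mean TPM, with some others chosen after their values were seen (*Slc30a3*, *Slc30a7*, *Ddit4*, *Il6r*, *Socs3*). For likeness, the 5 genes of highest r were named. Promoters came from RefSeq, build GRCr8. Alternatives were no filter, at least 10 counts in every rat, library size only, the RLE size factors, DESeq2 1.42.0, limma 3.58.1 on log2(TPM + 1) and log2(TPM + 0.1), 1 model of all rats or only the rats compared, the FDR alone, the replicate number as a block, and each rat left out in turn.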

Additional observations from a re-analysis of the deposited data

Results flagged for a closer look

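Between Years 0.5 and 2, the difference between MWCNT-treated and control rats changed for 194 of all 14843 genes tested (1.31%). Among them were 2 genes of the copper and glucocorticoid lists, given here, and 3 cell type markers, *Msr1* and *Fabp4* of macrophages (0.93 ± 0.18 and 2.11 ± 0.27 on the log2 scale, adjusted p = 0.0209 and 0.00136) and *Pdpn* of alveolar type 1 cells (-0.48 ± 0.09, adjusted p = 0.014). For the copper importer *Slc31a1*, the interaction was 0.74 ± 0.15 on the log2 scale (adjusted p = 0.0236, edgeR's quasi-likelihood test). Its mean TPM was 22.7 in control and 31.3 in MWCNT-treated rats at Year 0.5, and 17.0 and 36.9 at Year 2. The call was lost in 6 of the 16 alternative fits, each with a rat left out, and their adjusted p ranged from 0.0027 to 0.095. For the kinase *Sgk1*, the interaction was 0.59 ± 0.13 (adjusted p = 0.0396), with 77.5 and 117 TPM at Year 0.5 and 59.0 and 126 TPM at Year 2. That call was lost in 10 of the 16 fits, with an adjusted p from 0.00391 to 0.146.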

How the results depend on the processing

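Over the alternatives, no log2 fold change of the 7 genes that had been called turned its sign. Scaling by library size alone moved the median log2 fold change of all genes by -0.10, -0.13, and -0.17 at Years 0.5, 1, and 2. Requiring 10 counts in every rat left 1, 0, and 1 of the 7 called at Years 0.5, 1, and 2, since it removes *Mt3* by construction, and the FDR alone passed 6, 3, and 6. With each rat left out, the number called ranged from 3 to 4 at Year 0.5, 1 to 3 at Year 1, and 2 to 3 at Year 2. *Mt3* stayed called in each of these fits and *Mt2A* in each at Years 0.5 and 2, and the genes gained were *Mt1*, *Mtf1*, and *Slc39a8*. Since the 7 genes were chosen with this treatment difference known, these calls only describe the fits and are no evidence for the difference. For the interaction of Year 2 against Year 0.5, DESeq2 called 1, *Slc30a1*, and 0 to 1 were called with a rat left out. For Year 2 against Year 1 in MWCNT-treated lungs, 0 were called in the fit of only the 6 rats, and 0 to 1 with a rat left out. Over all genes, the interaction of Year 2 against Year 0.5 was called for 194 by edgeR and 480 by DESeq2 (52 to 280 with a rat left out). That of Year 2 against Year 1 was called for 71, against 512 by DESeq2, 44 with no filter, 46 with library size alone, and 1 to 416 with a rat left out. For Year 1 against Year 0.5, DESeq2 called 6 interactions and edgeR 0. In control lungs, 94 genes were called for Year 2 against Year 0.5 and 74 for Year 2 against Year 1, but 41 and 19 from only the 6 rats and 31 to 154 and 8 to 140 with a rat left out. For Year 1 against Year 0.5, DESeq2 called 7 and edgeR 0 in control lungs, and 18 and 7 in MWCNT-treated lungs (2 to 7 with a rat left out). In MWCNT-treated lungs, 134 genes were called for Year 2 against Year 1 and 78 from only the 6 rats (70 to 184 with a rat left out). The FDR alone passed 5549, 5913, and 7067 genes by treatment, against 1303, 1467, and 2355 DEGs, and by time for Year 2 against Years 0.5 and 1 it passed 987 and 1177 in control lungs and 2006 and 882 in MWCNT-treated lungs. The cause of these shifts was not tested. Depth limits *Mt3* in control lungs to 0 to 2 reads.

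Rats of the same number in the control and MWCNT-treated groups did not deviate together: r lay between -0.15 and 0.11 over 9 pairs, with a mean of 0.01, so the numbers do not pair the rats. With the replicate number as a block, the number of the 7 genes called was 2, 1, and 2 at Years 0.5, 1, and 2, and 1 for each MWCNT-treated time effect of Year 2, as without the block, and no other call changed.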
